A study of Mus musculus with 56 samples.

Results

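The 10 genes described here, Cps1, Gls2, Hal, Uroc1, Sds, Cyp2f2, Aldh1b1, Hsd17b13, Cdh1 and Ctsc, are known for higher expression in periportal than in pericentral hepatocytes. They were taken by symbol and matched to Ensembl identifiers, and they are 10 of the 45513 genes counted in the liver of 56 mice. The study examined the vascular safety of BCR-ABL1 tyrosine kinase inhibitors, drugs against chronic myeloid leukemia, in female APOE*3Leiden.CETP mice. These mice carry human transgenes (APOE*3Leiden, which also holds APOC1, and CETP) that give them a human-like lipoprotein metabolism, so every group, controls included, carried them and was fed a Western-type diet with 15% cacao butter and 0.15% cholesterol. The stated age of 9 to 14 weeks is that of the mice used for the study. A run-in on this diet and the treatment followed, so the mice were older when the livers were taken. Each of the 7 groups held 8 mice. The control group was gavaged with the vehicle, 5% carboxymethyl cellulose. Imatinib was given in 2 gavages per day of 150 mg/kg each. Nilotinib at 10 or 30 mg/kg and ponatinib at 3 or 10 mg/kg were given in 1 gavage per day beside a gavage of vehicle. These treatments lasted 16 weeks. The last group drank water with 0.12 to 0.20% L-NAME, an inhibitor of nitric oxide synthases, and was gavaged with vehicle, and the duration of that treatment is not given in the sources used here.

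Blood enters the liver lobule at the portal vein and leaves it at the central vein, and hepatocytes divide their work along this path. Periportal hepatocytes are known for urea synthesis, the breakdown of amino acids and gluconeogenesis, and pericentral hepatocytes for glutamine synthesis and drug metabolism. Wnt signals from the central vein maintain the pericentral program, and glucagon is known to favour the periportal one. In RNA of whole liver, fewer cells of a type and less RNA per cell cannot be told apart, and the position of a transcript in the lobule is not measured. The labelled tissue had the markers of hepatocytes: 7 of them, albumin included, summed to between 68588 and 145667 CPM (a gene's count relative to its library's total, as edgeR gives it after TMM scaling) in every mouse.

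Of the 10 genes, Cps1, Aldh1b1 and Cyp2f2 were lower than in control in at least 2 treated groups, and the promoters of the pair that has an entry in the RefSeq table (GRCm38.p6) are shown to let their sequence be set beside these changes. Each runs from 250 bases before to 50 bases after the start. Capitals mark matches, on either strand, to a search for TGACGTCA (the cAMP response element) and for its first letters TGACG alone, for CTTTGA or with another last letter CTTTGT (bound by TCF and LEF, the factors of Wnt signalling), and for GTTAAT (part of a site of HNF1). The Aldh1b1 promoter lies at chr4:45798772-45799071 on the plus strand, and the Cyp2f2 promoter at chr7:27119705-27120004 on the plus strand.
Aldh1b1: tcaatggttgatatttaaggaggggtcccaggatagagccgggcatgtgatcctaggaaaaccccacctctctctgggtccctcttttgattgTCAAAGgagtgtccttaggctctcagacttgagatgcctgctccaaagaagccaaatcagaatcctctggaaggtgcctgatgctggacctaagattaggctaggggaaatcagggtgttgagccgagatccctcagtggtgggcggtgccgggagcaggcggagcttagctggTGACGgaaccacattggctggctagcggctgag
Cyp2f2: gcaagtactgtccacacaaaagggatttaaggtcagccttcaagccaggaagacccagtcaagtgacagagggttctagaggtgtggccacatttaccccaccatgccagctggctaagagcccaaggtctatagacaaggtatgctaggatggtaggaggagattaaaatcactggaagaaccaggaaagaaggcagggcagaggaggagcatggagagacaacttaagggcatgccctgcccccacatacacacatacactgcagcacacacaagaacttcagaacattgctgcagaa
The Aldh1b1 window held CTTTGA on the minus strand (printed as TCAAAG) and TGACG within the first 50 transcribed bases, and the Cyp2f2 window held none of the 5 motifs. Of all 32851 promoters in the table, TGACG was found in 20.8%, CTTTGA in 16.0%, CTTTGT in 18.7%, GTTAAT in 7.10% and TGACGTCA in 1.79%. Among the 6 of the 10 genes with an entry, CTTTGA was in 4 (Aldh1b1, Hsd17b13, Uroc1 and Hal) and TGACG in 2 (Aldh1b1 and Hsd17b13). A match describes letters only and names no bound factor.

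The total count on genes ran from 5342379 to 97473341 per mouse (median 7570238), and the deepest library was 1 L-NAME mouse. The share of uniquely aligned reads outside annotated genes differed between groups. It was 7.97% ± 0.42 (SD, n = 8 for each group) in the control group, 8.53% ± 0.61 with ponatinib 3 mg/kg, 9.75% ± 0.69 with nilotinib 10 mg/kg, 10.0% ± 1.82 with imatinib, 10.5% ± 1.38 with nilotinib 30 mg/kg, 11.0% ± 1.99 with ponatinib 10 mg/kg and 11.0% ± 2.45 with L-NAME. In both nilotinib groups, the ponatinib 10 mg/kg group and the L-NAME group every mouse exceeded every control mouse, so in these 4 groups the treatment and this share cannot be told apart. The largest shares, together with the largest mitochondrial shares, were those of 3 libraries that stood apart, at 14.1% (imatinib), 15.2% (ponatinib 10 mg/kg) and 16.8% (L-NAME). Without them 118 of 120 results (10 genes in 12 comparisons) stayed on the same side of the threshold. The exceptions were Aldh1b1 with L-NAME, which was no longer called, and Cyp2f2 with nilotinib 30 mg/kg, which then was (log2 fold change -0.45, adjusted p = 0.0499). Imatinib and nilotinib 30 mg/kg libraries differed in other shares. Reads aligned to several places were 34.1% to 38.9% with imatinib, 34.4% to 42.6% with nilotinib 30 mg/kg and 31.7% to 33.9% in control mice. Uniquely aligned reads ambiguous between genes were 2.01% to 2.73%, 2.45% to 2.77% and 2.79% to 3.34% in the same order. No mouse of these treated groups overlapped control mice in either, so these treatments and these shares cannot be told apart. Neither was used as a covariate.

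All 56 mice entered a fit by edgeR's quasi-likelihood test, in which the treated groups were set against control, and a gene was called at a Benjamini-Hochberg adjusted p below 0.05 over the 14314 genes tested. All 10 genes passed the filter on low counts. Every call against control was a decrease. With imatinib 2 of the 10 genes were lower, where 10.3% of all tested genes were called in either direction. It was 1 gene at the lower dose of nilotinib (1.41% of all genes) and 4 at the higher (5.77%). No gene was called with ponatinib 3 mg/kg (0.0419% of all genes), where 3 had an unadjusted p below 0.05, DESeq2 called 0 and limma voom called 1. With ponatinib 10 mg/kg 4 genes were lower (13.1%) and with L-NAME 3 (11.8%). These comparisons share the 8 control mice and are not independent of each other.

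The 10 genes leaned downward with nilotinib more than the genes as a whole did. Their median log2 fold change was -0.51 at the higher and -0.45 at the lower dose, where the median over all tested genes was 0.03 and 0.01. It was -0.28 with imatinib and -0.27 with L-NAME, against -0.02 and 0.02 over all genes. The lower ponatinib dose had a median of 0.03 and the higher -0.10, against -0.01 for either over all genes. All 10 genes lay below 0 with imatinib and with nilotinib 30 mg/kg, 9 with nilotinib 10 mg/kg, 8 with L-NAME, 6 with ponatinib 10 mg/kg and 3 with ponatinib 3 mg/kg. A joint move of the 10 genes was not tested.

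**Figure D1:**
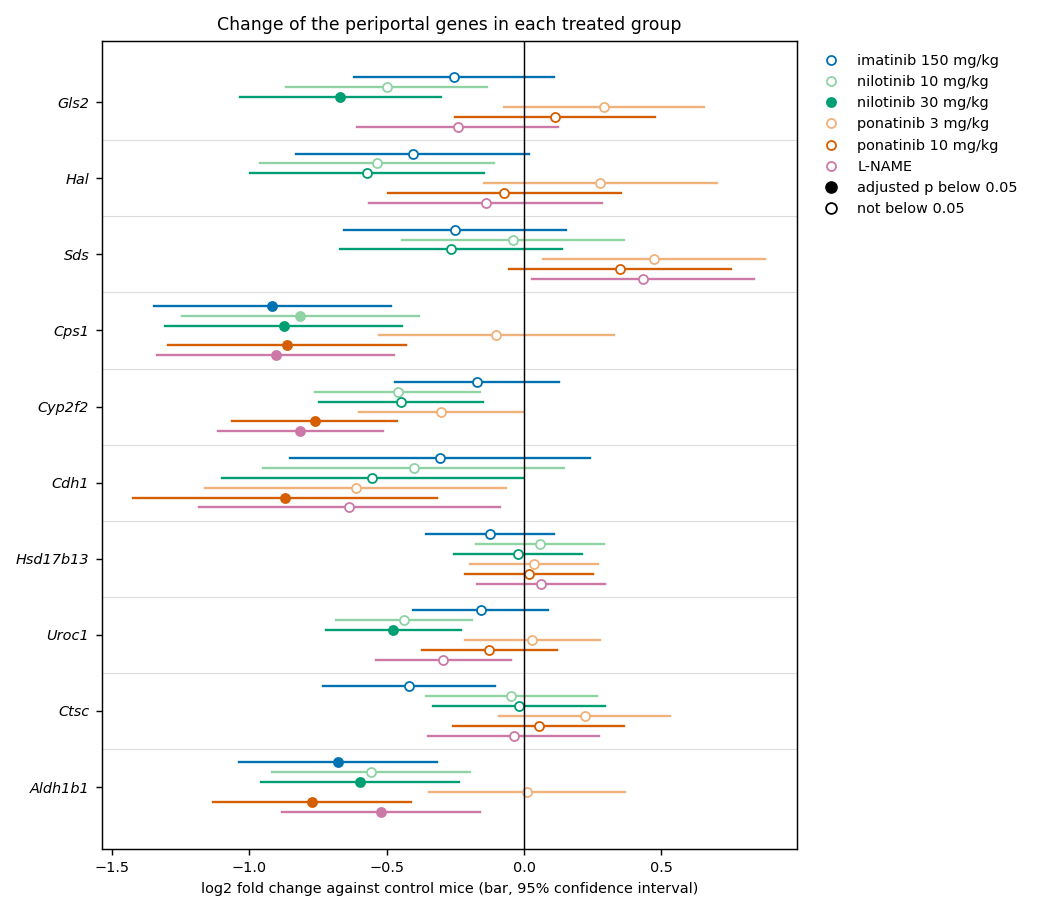
Log2 fold change against control mice (horizontal axis) with its 95% confidence interval (bars) for each of the 10 genes (rows) in the 6 treated groups (colours). Filled points passed an adjusted p of 0.05 in edgeR's quasi-likelihood test. Cps1 is filled in every group but ponatinib 3 mg/kg, and the Hsd17b13 points lie between -0.12 and 0.06.

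Cps1 encodes carbamoyl phosphate synthetase 1, the mitochondrial enzyme that starts the urea cycle from ammonia (ENSMUSG00000025991, chr1:67123026-67231259, plus strand, GRCm38). It was the most abundant of the 10 genes per length, at 672 ± 166 CPM per kilobase of exon in control mice. Its level in control mice ranged from 2527 to 5025 CPM with a median of 3509.8. With imatinib it ranged from 1154 to 3155 CPM (median 1831), with nilotinib 10 mg/kg from 1479.7 to 3097 (2057) and with nilotinib 30 mg/kg from 980.1 to 3035 (2102). Between 5 and 7 of the 8 mice in each of these groups lay below every control mouse. With ponatinib 10 mg/kg the range was 1187 to 4160.1 CPM (median 1907), with L-NAME 981 to 2905 (2052) and with ponatinib 3 mg/kg 2744 to 4522 (3347). The ponatinib 10 mg/kg and L-NAME groups each had 7 mice below every control mouse, and the ponatinib 3 mg/kg group had none.

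In means, Cps1 was 3731 ± 920.3 CPM in the control group (SD, n = 8 in each group), 3479.8 ± 634 CPM with ponatinib 3 mg/kg and between 1977 ± 803 CPM (imatinib) and 2122 ± 500.1 CPM (nilotinib 10 mg/kg) in the other 5 groups. The step from these 5 groups up to ponatinib 3 mg/kg was larger than the SD of either neighbour, and no other step in the order of the groups was. Cps1 was lower than in control with imatinib (log2 fold change -0.92 ± 0.22 SE, adjusted p = 0.0034), nilotinib 10 mg/kg (-0.81 ± 0.22, adjusted p = 0.038), nilotinib 30 mg/kg (-0.87 ± 0.22, adjusted p = 0.0083), ponatinib 10 mg/kg (-0.86 ± 0.22, adjusted p = 0.0042) and L-NAME (-0.90 ± 0.22, adjusted p = 0.0031). These are 0.53 to 0.569 times the control level. With ponatinib 3 mg/kg the log2 fold change was -0.10 with a 95% confidence interval from -0.53 to 0.33 (adjusted p = 0.935). With the share of reads outside genes as a covariate the values were -0.69, -0.69, -0.67 and -0.73 in the nilotinib 10, nilotinib 30, ponatinib 10 mg/kg and L-NAME groups, none of them called, and -0.78 with imatinib, still called at an adjusted p of 0.031.

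Gls2 encodes the liver-type glutaminase, which releases ammonia from glutamine (ENSMUSG00000044005, chr10:128194457-128210004, plus strand). In control mice it ranged from 224 to 602 CPM with a median of 414. It ranged from 152 to 382 CPM (median 243) with nilotinib 30 mg/kg and from 168 to 520.0 (241) with 10 mg/kg. All 8 mice of the higher nilotinib dose and 7 of the lower lay below the control mean of 406 ± 106 CPM. The group means were 256 ± 73.5 CPM at the higher and 287 ± 115 at the lower dose, against 439 ± 94.6 with ponatinib 10 mg/kg, 497 ± 44.4 with ponatinib 3 mg/kg, 340 ± 88.8 with imatinib and 343 ± 92.4 with L-NAME. Gls2 was lower with nilotinib 30 mg/kg (log2 fold change -0.67 ± 0.18 SE, adjusted p = 0.017) and was not called with 10 mg/kg (-0.50 ± 0.18, adjusted p = 0.15) or in any other group by edgeR. Limma voom with sample weights called the decrease with 10 mg/kg as well (-0.51, adjusted p = 0.0423). With the covariate the nilotinib 30 mg/kg value was -0.77 and no longer called (adjusted p = 0.051).

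The direction of Gls2 under nilotinib was not seen under ponatinib, and the difference itself was tested. Gls2 was higher with ponatinib 10 mg/kg than with nilotinib 30 mg/kg (log2 difference 0.78 ± 0.18 SE, adjusted p = 0.013), doses that differ in mg/kg, and it was the only one of the 10 genes called there (1.88% of all genes). With both drugs at 10 mg/kg the difference was 0.61 with a 95% confidence interval from 0.25 to 0.98 (adjusted p = 0.057). These doses are equal in mg/kg and are not matched in plasma exposure. At this dose none of the 10 genes was called (2.06% of all genes), 4 had an unadjusted p below 0.05, and DESeq2 and limma voom each called 1. Gls2 shares 97 bases of exon with Spryd4 on the other strand, and the library kit does not mark strand, so reads there cannot be assigned to either gene. Over all mice 188343 reads were counted on Gls2 and 16288 on Spryd4.

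**Figure D2:**
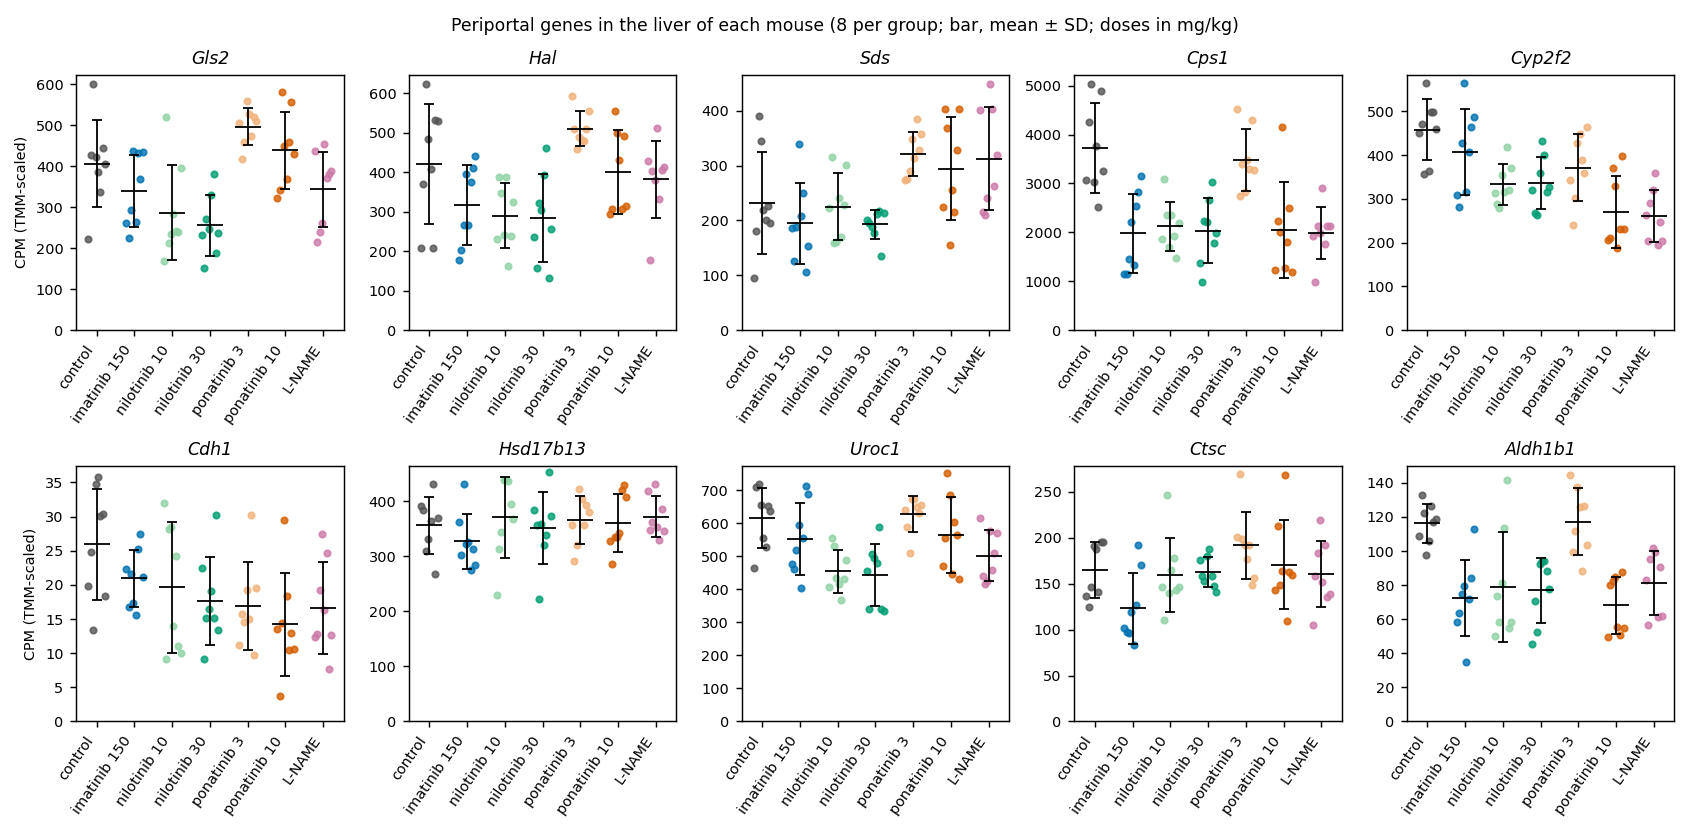
Level of each of the 10 genes in CPM (vertical axis, from 0) in every mouse (points), by group (horizontal axis, doses in mg/kg), with the mean and SD of 8 mice (bars). Aldh1b1 in the nilotinib 30 and ponatinib 10 mg/kg groups lies below all 8 control mice, and the ponatinib 3 mg/kg points for Gls2, Hal and Sds lie above the control mean. Such gaps were not counted over all tested genes.

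The other genes of the urea cycle and of ammonia use lay mostly below 0 in the nilotinib and L-NAME groups, and at most 4 of 9 passed the test in a group. Their median log2 fold change, without Cps1 and Gls2, was -0.27 with nilotinib 10 mg/kg, -0.18 with nilotinib 30 mg/kg, -0.18 with L-NAME, -0.14 with imatinib, -0.03 with ponatinib 10 mg/kg and 0.10 with ponatinib 3 mg/kg. All 9 lay below 0 with nilotinib 10 mg/kg, from -0.48 (Slc25a15) to -0.01 (Asl), and 8 of 9 with nilotinib 30 mg/kg and with L-NAME. Of the 9 tested besides Cps1 and Gls2, none was called with imatinib, nilotinib 10 mg/kg or ponatinib 3 mg/kg, 2 were lower with nilotinib 30 mg/kg, 2 were lower and 1 higher with ponatinib 10 mg/kg, and 4 were lower with L-NAME. Of the full list of 11, 3, 8 and 2 had an unadjusted p below 0.05 in the imatinib, nilotinib 10 and ponatinib 3 mg/kg groups, DESeq2 called 1, 2 and 0 and limma voom 4, 4 and 2. Slc25a13, the mitochondrial aspartate and glutamate carrier, was lower with L-NAME (log2 fold change -0.68, adjusted p = 0.00024), nilotinib 30 mg/kg (-0.66, adjusted p = 0.00086) and ponatinib 10 mg/kg (-0.44, adjusted p = 0.013). Slc25a15, the mitochondrial ornithine carrier, was lower with L-NAME (-0.57, adjusted p = 0.010), as was Glul, the pericentral glutamine synthetase (-0.41, adjusted p = 0.013). Glud1, glutamate dehydrogenase, was lower with L-NAME (-0.38) and ponatinib 10 mg/kg (-0.31). Of the 4 enzymes that follow Cps1 in the cycle, Otc (ornithine transcarbamylase) lay between -0.18 and 0.10 and was called in no group by edgeR. Ass1 (argininosuccinate synthase) was not called by edgeR either, and its log2 fold change was -0.47 with nilotinib 10 mg/kg (adjusted p = 0.20), -0.35 with nilotinib 30 mg/kg (adjusted p = 0.31), -0.32 with imatinib, -0.18 with L-NAME, -0.03 with ponatinib 10 mg/kg and 0.15 with ponatinib 3 mg/kg. Asl (argininosuccinate lyase) was higher with ponatinib 10 mg/kg (0.51, adjusted p = 0.023), and Arg1 (arginase) was lower with nilotinib 30 mg/kg (-0.41, adjusted p = 0.031). Glud1 and these 4 enzymes were named after their values were seen.

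**Figure D3:**
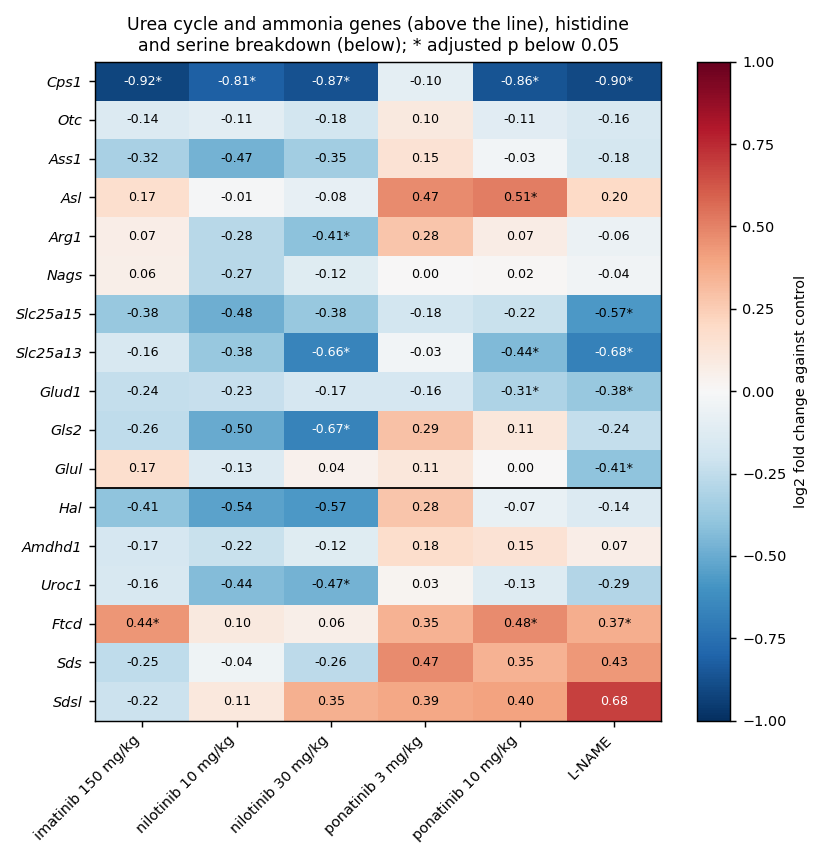
Log2 fold change against control (colour and printed value) of urea cycle and ammonia genes (above the line) and of histidine and serine breakdown genes (below it) in the 6 treated groups (columns), with asterisks for an adjusted p below 0.05. The Cps1 row is called in 5 columns, and the Otc row lies between -0.18 and 0.10.

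Hal and Uroc1 encode histidase and urocanase, the enzymes of the first steps of histidine breakdown (ENSMUSG00000020017, chr10:93488768-93519304, and ENSMUSG00000034456, chr6:90333284-90364551, both on the plus strand). Uroc1 ranged from 465 to 718 CPM in control mice (median 645), from 335 to 588 with nilotinib 30 mg/kg (467) and from 368 to 557 with nilotinib 10 mg/kg (433). Every nilotinib mouse lay below the control mean of 615 ± 90.3 CPM, though both groups overlapped the control range. Uroc1 was lower with nilotinib 30 mg/kg (log2 fold change -0.47 ± 0.12 SE, adjusted p = 0.012), at a mean of 443 ± 93.9 CPM, and this call held with the covariate (-0.52). Over the 8 alternative fits its adjusted p ran from 0.0033 up to the threshold, at 0.05 after rounding, and all 8 called it. With nilotinib 10 mg/kg its mean was 454 ± 65.3 CPM and the log2 fold change -0.44 ± 0.12, just outside the threshold (adjusted p = 0.05012), and DESeq2, limma voom and the fit of these 2 groups alone called it. In the other groups the mean ran from 502 ± 77.5 CPM with L-NAME to 628 ± 54.5 CPM with ponatinib 3 mg/kg, and edgeR called no change. Limma voom called the decrease with L-NAME (-0.29, adjusted p = 0.0321).

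Hal was called in no group and varied more between control mice, from 208 to 623 CPM with a median of 446. Its mean was 421 ± 152 CPM in control mice, 290.1 ± 82.7 with nilotinib 10 mg/kg, 283 ± 111 with nilotinib 30 mg/kg, 317 ± 101 with imatinib, 400.0 ± 106 with ponatinib 10 mg/kg, 382 ± 96.9 with L-NAME and 509.6 ± 44.3 with ponatinib 3 mg/kg. The log2 fold change was -0.54 (adjusted p = 0.20) and -0.57 (adjusted p = 0.10) with nilotinib 10 and 30 mg/kg. Ftcd, the enzyme that ends the same route, was higher with imatinib (0.44), ponatinib 10 mg/kg (0.48) and L-NAME (0.37), and Amdhd1, which acts after urocanase, was called in no group (-0.22 to 0.18); both were named after their values were seen.

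Sds encodes serine dehydratase, which turns serine into pyruvate and is induced in fasting (ENSMUSG00000029597, chr5:120476526-120483932, plus strand). It was called in no comparison by edgeR. Its level ranged from 95.9 to 390.1 CPM in control mice (median 209), from 274 to 384 (321) with ponatinib 3 mg/kg and from 210.5 to 448 with L-NAME (292). All 8 mice given ponatinib 3 mg/kg lay above the control mean of 232 ± 93.6 CPM but inside the control range. The log2 fold change was 0.47 with ponatinib 3 mg/kg (95% confidence interval 0.07 to 0.88, adjusted p = 0.38), 0.35 with ponatinib 10 mg/kg (-0.06 to 0.75, adjusted p = 0.28) and 0.43 with L-NAME (0.03 to 0.84, adjusted p = 0.17). It was -0.25, -0.04 and -0.26 with imatinib and nilotinib 10 and 30 mg/kg. Limma voom with sample weights called the increase in both ponatinib groups and with L-NAME. Sds shares 360 bases of exon with Plbd2 on the other strand, and over all mice 135336 reads were counted on Sds and 46371 on Plbd2.

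The wider list of amino acid breakdown held 24 tested genes beside the 4 of the 10 that belong to it. Of the whole list of 28 genes, 1 was lower and 3 were higher with imatinib, 2 were lower with nilotinib 10 mg/kg, 6 were lower with nilotinib 30 mg/kg, 4 were lower and 3 higher with ponatinib 10 mg/kg, 4 were lower and 2 higher with L-NAME, and none was called with ponatinib 3 mg/kg (5 at an unadjusted p below 0.05, 0 by DESeq2, 5 by limma voom). Tat, tyrosine aminotransferase, was lower with imatinib (log2 fold change -0.62), nilotinib 10 mg/kg (-0.73), nilotinib 30 mg/kg (-0.87) and L-NAME (-0.78). Aass, which starts lysine breakdown, was lower with nilotinib 10 mg/kg (-0.52), nilotinib 30 mg/kg (-0.62), ponatinib 10 mg/kg (-0.59) and L-NAME (-0.49). Prodh2, hydroxyproline dehydrogenase, was higher with imatinib (0.51), ponatinib 10 mg/kg (0.60) and L-NAME (0.56).

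Of 16 genes known to respond to glucagon, fasting or glucocorticoids, 3 were lower and 1 higher with imatinib, 2 were lower with nilotinib 10 mg/kg, 4 with nilotinib 30 mg/kg, 2 with ponatinib 10 mg/kg and 4 with L-NAME, and 0 were called with ponatinib 3 mg/kg (2 at an unadjusted p below 0.05, 0 by DESeq2 and by limma voom). The amino acid transporter Slc38a4 was lower in all of these groups, from -0.77 with nilotinib 30 mg/kg to -0.37 with ponatinib 10 mg/kg, and stood at 0.08 with ponatinib 3 mg/kg. The cationic amino acid transporter Slc7a2 was lower in 4 of them, by -1.04 with nilotinib 30 mg/kg, -0.71 with imatinib, -0.56 with ponatinib 10 mg/kg and -0.54 with L-NAME. Of 12 clock output genes none was called in any comparison with control by edgeR, with 0 to 3 at an unadjusted p below 0.05. DESeq2 called 0 of them, and limma voom called 5 with nilotinib 30 mg/kg.

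Cyp2f2 encodes a cytochrome P450 known for the oxidation of naphthalene and, unlike most of its family in liver, for a periportal position (ENSMUSG00000052974, chr7:27119909-27133660, plus strand). It ranged from 357 to 565 CPM in control mice (median 465), from 187 to 397 with ponatinib 10 mg/kg (231), from 196 to 360.1 with L-NAME (255) and from 282 to 564 with imatinib (417). With ponatinib 10 mg/kg 6 mice and with L-NAME 7 mice lay below every control mouse, and with imatinib 3. Its mean was 458 ± 69.4 CPM in control mice, 270.2 ± 82.1 with ponatinib 10 mg/kg and 261 ± 60.0 with L-NAME. Cyp2f2 was lower with ponatinib 10 mg/kg (log2 fold change -0.76 ± 0.15 SE, adjusted p = 0.00038) and with L-NAME (-0.81 ± 0.15, adjusted p = 0.0002). Both calls held in every alternative fit that includes the group, the covariate of reads outside genes included (-0.76 and -0.81).

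With imatinib the level of Cyp2f2 was 407 ± 99.0 CPM and its log2 fold change -0.17 with a 95% confidence interval from -0.47 to 0.13. The difference between imatinib and ponatinib 10 mg/kg, doses that differ in mg/kg, was 0.59 ± 0.15 SE on the log2 scale (adjusted p = 0.028), the only call of the 10 genes between these drugs (1.08% of all genes). It was not called when these 2 groups were fitted alone (0.59, adjusted p = 0.17). With nilotinib the mean was 333 ± 46.2 CPM at the lower dose and 336 ± 59.4 at the higher, and the log2 fold changes of -0.46 (adjusted p = 0.094) and -0.45 (adjusted p = 0.062) missed the threshold, though DESeq2, limma voom and fits of 2 groups called both. With ponatinib 3 mg/kg the mean was 372 ± 76.1 CPM and the log2 fold change -0.30 (adjusted p = 0.49). An antisense gene, Gm15883, shares 274 bases of exon with Cyp2f2 and had 1708 reads over all mice against 181766.

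Aldh1b1 encodes a mitochondrial aldehyde dehydrogenase that oxidises acetaldehyde and retinaldehyde (ENSMUSG00000035561, chr4:45799022-45804604, plus strand). It varied little between control mice, from 97.8 to 133 CPM with a median of 118. It ranged from 45.5 to 94.2 CPM with nilotinib 30 mg/kg (median 83.0) and from 49.5 to 87.7 with ponatinib 10 mg/kg (67.6), so that neither group overlapped the control mice. The share of all tested genes without such overlap was not counted, so how unusual this is cannot be said. With imatinib 7 of 8 mice and with L-NAME 6 of 8 lay below every control mouse. Its mean was 116 ± 11.6 CPM in the control group, 117 ± 19.6 with ponatinib 3 mg/kg, 68.1 ± 16.9 with ponatinib 10 mg/kg, 72.6 ± 22.4 with imatinib, 76.9 ± 19.2 with nilotinib 30 mg/kg, 79.0 ± 32.4 with nilotinib 10 mg/kg and 81.2 ± 18.6 with L-NAME. The step from the control mean down to the L-NAME mean was larger than the SD of either group, and no other step between neighbours was.

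Aldh1b1 was lower than in control with ponatinib 10 mg/kg (log2 fold change -0.77 ± 0.18 SE, adjusted p = 0.0023), imatinib (-0.68 ± 0.18, adjusted p = 0.0096), nilotinib 30 mg/kg (-0.60 ± 0.18, adjusted p = 0.033) and L-NAME (-0.52 ± 0.18, adjusted p = 0.046). The L-NAME call was not kept without the 3 libraries that stood apart (-0.46, adjusted p = 0.12), with RLE normalization (-0.50, adjusted p = 0.0533) or with no filter on low counts (-0.53, adjusted p = 0.0531). With nilotinib 10 mg/kg the value was -0.56 (adjusted p = 0.094), called by DESeq2 and by limma voom. With the share of reads outside genes as a covariate the values ran from -0.63 with ponatinib 10 mg/kg to -0.40 with L-NAME, and none was called.

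Aldh1b1 differed between the ponatinib doses. Between ponatinib 10 and 3 mg/kg its log2 difference was -0.78 ± 0.18 SE (adjusted p = 0.017), the only edgeR call of the 10 genes between the doses (1.39% of all genes). With the share of reads outside genes as a covariate it was -0.67 and not called (adjusted p = 0.269), and that share was higher at the higher dose. Every mouse of the higher dose lay below every mouse of the lower, with 87.7 CPM as the highest and 88.1 CPM as the lowest value. The share of all tested genes with such a gap was not counted here either. Cps1 differed by -0.76 ± 0.22 (adjusted p = 0.054) and Cyp2f2 by -0.46 ± 0.15 (adjusted p = 0.10), and both were called by DESeq2 and by limma voom. Between nilotinib 30 and 10 mg/kg none of the 10 genes was called by edgeR, DESeq2 or limma voom, and 0 had an unadjusted p below 0.05 (0% of all genes called). The 95% confidence interval of that dose difference was -0.49 to 0.37 for Cps1 and -0.40 to 0.32 for Aldh1b1. Between imatinib 150 mg/kg and nilotinib 30 mg/kg none was called either (3.59% of all genes), where 3 had an unadjusted p below 0.05, DESeq2 called 0 and limma voom called 1.

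Aldehyde dehydrogenases other than Aldh1b1 also fell in some groups. Of 12 tested, 1 was higher with imatinib, 3 were lower with nilotinib 30 mg/kg, 4 with ponatinib 10 mg/kg and 4 with L-NAME, and none was called at the lower dose of nilotinib or ponatinib. With Aldh1b1 included, 6 and 1 had an unadjusted p below 0.05 at these doses, DESeq2 called 2 and 0 and limma voom 4 and 0. Aldh6a1, of valine breakdown, was lower with L-NAME (log2 fold change -0.53), ponatinib 10 mg/kg (-0.45) and nilotinib 30 mg/kg (-0.41). Aldh7a1, of lysine breakdown, was lower with ponatinib 10 mg/kg (-0.45), L-NAME (-0.36) and nilotinib 30 mg/kg (-0.31), and Aldh3a2, which oxidises fatty aldehydes, with ponatinib 10 mg/kg (-0.53).

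**Figure D4:**
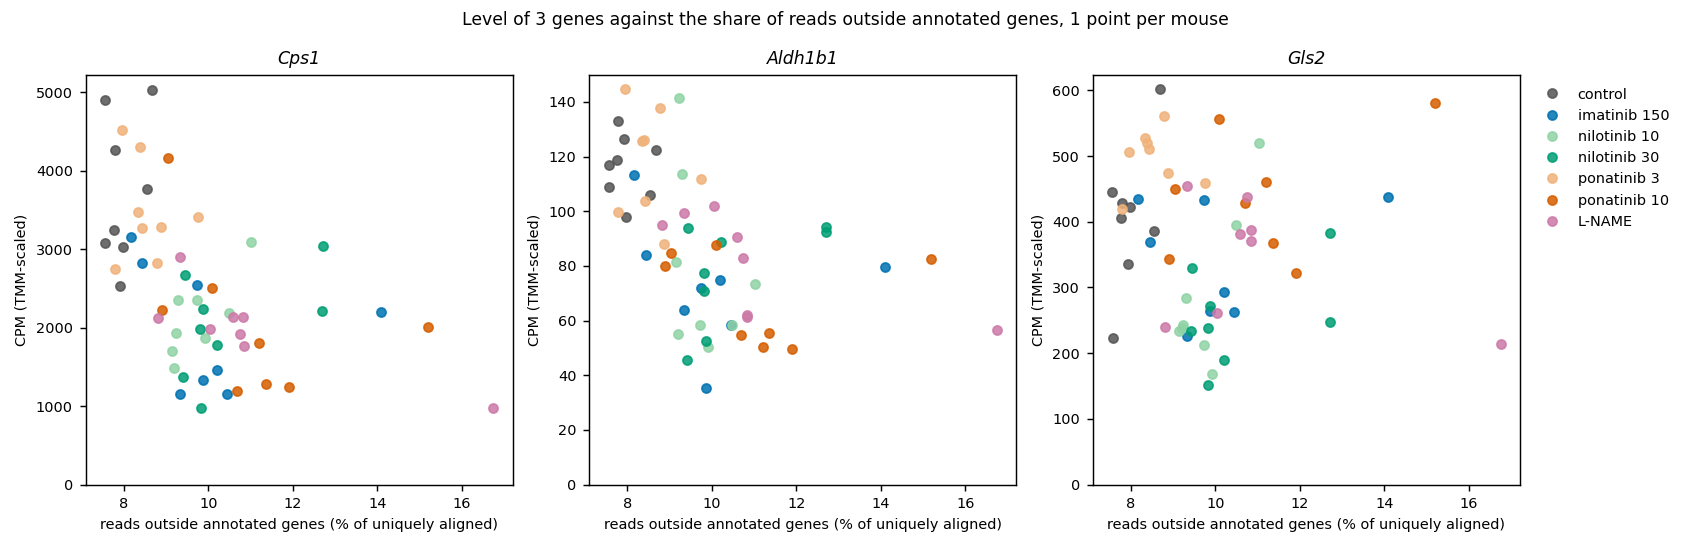
Level in CPM (vertical axis, from 0) of Cps1, Aldh1b1 and Gls2 against the share of uniquely aligned reads outside annotated genes (horizontal axis), with 1 point per mouse coloured by group. The control and ponatinib 3 mg/kg mice lie at the left, between 7.55% and 9.75%, and hold most of the high Cps1 and Aldh1b1 values.

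The groups with the lowest share of reads outside genes, control and ponatinib 3 mg/kg, were also the groups with the highest Cps1 and Aldh1b1. With the group means taken out, the correlation of the level with this share over 56 mice was -0.23 for Cps1, -0.17 for Aldh1b1, -0.02 for Cyp2f2 and 0.11 for Gls2. Without the 3 libraries that stood apart it was -0.17 for Cps1, -0.26 for Aldh1b1, -0.26 for Cyp2f2 and 0.22 for Gls2. These values are descriptions, and the part of this share in the changes was not tested beyond the fit that holds it as a covariate.

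Hsd17b13 encodes a lipid droplet protein of hepatocytes (ENSMUSG00000034528, chr5:103955440-103977410, minus strand). It was the steadiest of the 10 genes between groups. Its mean was 357 ± 51.5 CPM in control mice and lay between 327 ± 49.7 CPM (imatinib) and 372 ± 36.9 CPM (L-NAME) in the treated groups, and mice of every treated group overlapped the control range of 268 to 431 CPM. The log2 fold changes ran from -0.12 to 0.06, and the 95% confidence intervals from -0.36 to 0.29 over the 6 comparisons. Of 13 tested genes of lipid droplets and of LXR or SREBP1c regulation, 2 were higher and 2 lower with imatinib, 1 was lower at each nilotinib dose, 1 was higher and 2 lower with ponatinib 10 mg/kg, 2 were lower with L-NAME, and none was called with ponatinib 3 mg/kg (0 at an unadjusted p below 0.05, by DESeq2 and by limma voom). The stearoyl-CoA desaturase gene Scd1 was lower with L-NAME (-0.99), imatinib (-0.97), nilotinib 30 mg/kg (-0.82), nilotinib 10 mg/kg (-0.74) and ponatinib 10 mg/kg (-0.67).

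Cdh1 encodes E-cadherin, the adhesion protein of periportal hepatocytes and of bile duct cells (ENSMUSG00000000303, chr8:106603351-106670246, plus strand). It was the least abundant of the 10 genes per length, at 5.66 ± 1.78 CPM per kilobase in control mice. It ranged from 13.3 to 35.8 CPM in control mice (median 27.4) and from 3.71 to 29.5 with ponatinib 10 mg/kg (13.2), where 4 mice lay below every control mouse. Its mean fell from 25.9 ± 8.16 to 14.2 ± 7.48 CPM (log2 fold change -0.87 ± 0.28 SE, adjusted p = 0.027). In a fit of these 2 groups alone the change missed the threshold (-0.86, adjusted p = 0.0503), and with the covariate it was -0.69 (adjusted p = 0.27). In the other groups the mean was between 16.7 ± 6.72 CPM (L-NAME) and 20.9 ± 4.17 CPM (imatinib), with log2 fold changes of -0.64 to -0.31, none called by edgeR. Limma voom with sample weights called the decrease with L-NAME (-0.86, adjusted p = 0.00219).

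The bile duct list, in which Cdh1 stands, had no other member called in any group by edgeR, where 0 to 2 of its 10 tested genes, Cdh1 included, had an unadjusted p below 0.05, DESeq2 called at most 1 and limma voom at most 3. Its summed level was 393 to 802 CPM in control mice and 417 to 868 CPM with ponatinib 10 mg/kg. The defining markers Krt19 and Epcam were close to the limit of detection, at 1.56 ± 1.38 and 2.50 ± 1.54 CPM in control mice and 1.42 ± 0.90 and 3.58 ± 2.26 CPM with ponatinib 10 mg/kg. Krt19 was at 0 in 6 mice.

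Ctsc encodes cathepsin C, a lysosomal protease that hepatocytes and leukocytes both express (ENSMUSG00000030560, chr7:88278085-88310888, plus strand). It was called in no group by edgeR. It ranged from 125 to 196 CPM in control mice (median 167) and from 82.9 to 192 with imatinib (110.2), where 5 mice lay below every control mouse. Its mean was 165 ± 30.3 CPM in control mice and 123 ± 38.5 with imatinib (log2 fold change -0.42 ± 0.16 SE, adjusted p = 0.076). Limma voom with sample weights called this decrease (-0.54, adjusted p = 0.00163). In the other groups the mean was between 159 ± 40.4 CPM (nilotinib 10 mg/kg) and 192 ± 36.7 CPM (ponatinib 3 mg/kg).

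The Kupffer cell and macrophage list moved in the imatinib group as well. Of its 14 genes, 7 were lower with imatinib, with a median log2 fold change of -0.78, and the summed level was 782 to 1491 CPM against 1245 to 2408 CPM in control mice. Of the named markers, Adgre1 (F4/80) was 17.9 ± 9.19 CPM with imatinib and 45.5 ± 22.6 in control mice, and Clec4f was 206 ± 45.5 and 183 ± 58.6 CPM. The part of these cells in the Ctsc value was not tested. In the other groups 0 to 2 genes of the list were higher and 0 to 2 lower. Of 13 leukocyte genes 1 was lower with imatinib and 1 higher with L-NAME. Of 10 genes of stellate cells and fibroblasts 3 were lower with imatinib, 2 with ponatinib 3 mg/kg, 3 with ponatinib 10 mg/kg and 1 with L-NAME. Of 8 sinusoidal endothelial genes edgeR called none, with 1 to 3 at an unadjusted p below 0.05 in each comparison, and DESeq2 and limma voom called at most 1.

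Other genes known for a periportal position changed in part. Of 20 tested, 1 was higher and 1 lower with imatinib, 1 was lower with nilotinib 10 mg/kg, 4 were lower with nilotinib 30 mg/kg, 3 were higher and 3 lower with ponatinib 10 mg/kg, 2 were higher and 3 lower with L-NAME, and 0 were called with ponatinib 3 mg/kg (6 at an unadjusted p below 0.05, 1 by DESeq2, 4 by limma voom). Pigr, the receptor that carries IgA into bile, was lower in all groups but ponatinib 3 mg/kg, from -0.79 with nilotinib 30 mg/kg to -0.60 with imatinib. Chdh, choline dehydrogenase, was lower with L-NAME (-0.64), nilotinib 30 mg/kg (-0.56) and ponatinib 10 mg/kg (-0.33). Serpina1c, an alpha-1 antitrypsin gene with near-identical copies and so with uncertain counts, was higher with ponatinib 10 mg/kg (0.66) and L-NAME (0.48).

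The difference between the pericentral and the periportal genes was not tested. Of 20 pericentral genes, 4 were higher with imatinib, 2 were lower with ponatinib 10 mg/kg and 2 with L-NAME. Cyp1a2 was higher with imatinib by 2.68 on the log2 scale and Cyp2c29 by 0.65, and Aldh1a1 was lower with ponatinib 10 mg/kg (-0.65) and L-NAME (-0.49). The median log2 fold change of the pericentral genes was 0.19 with imatinib, -0.16 with nilotinib 10 mg/kg, -0.05 with nilotinib 30 mg/kg, 0.12 with ponatinib 3 mg/kg, -0.22 with ponatinib 10 mg/kg and -0.20 with L-NAME. For the 20 other periportal genes it was -0.13, -0.24, -0.25, 0.21, 0.02 and -0.25 in the same order. With nilotinib 30 mg/kg 0 pericentral genes were called by edgeR, 3 at an unadjusted p below 0.05, 2 by DESeq2 and 3 by limma voom. Of the 7 general hepatocyte markers, 2 were higher with imatinib, and 3 were higher and 1 lower with ponatinib 10 mg/kg. With nilotinib 30 mg/kg and with L-NAME 1 was higher and 2 were lower. At the lower doses of nilotinib and ponatinib edgeR called 0, where 4 had an unadjusted p below 0.05 at each. DESeq2 called 1 and 0 there, and limma voom 4 and 2.

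Between mice of the same group, the genes of nitrogen metabolism varied together. After the group means were taken out of log2 CPM, the correlation over 56 mice was 0.76 for Gls2 and Hal, 0.74 for Hal and Cps1, 0.73 for Gls2 and Uroc1 and 0.72 for Hal and Uroc1. Sds followed Gls2 (0.58) more than Cps1 (0.10). Cyp2f2 and Aldh1b1 varied with each other (0.58) and also with Cps1 (0.47 and 0.54). Hsd17b13, Cdh1 and Ctsc stood apart from the rest, with -0.32 between Hsd17b13 and Hal. Of all 45 pairs 32 were above 0, with a median of 0.24. Part of the 10 genes ran opposite to the Kupffer cell and macrophage list. The median correlation with its 14 genes was -0.55 for Uroc1, -0.41 for Gls2, -0.37 for Hal and -0.20 for Cps1. For Cyp2f2, which is not a nitrogen gene, it was -0.27, and for Sds -0.155. It was -0.07 for Hsd17b13, 0.04 for Cdh1, 0.05 for Aldh1b1 and 0.39 for Ctsc. The part of these cells in the shared variation was not tested. The values of a pair come from the same libraries and are given as a description.

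**Figure D5:**
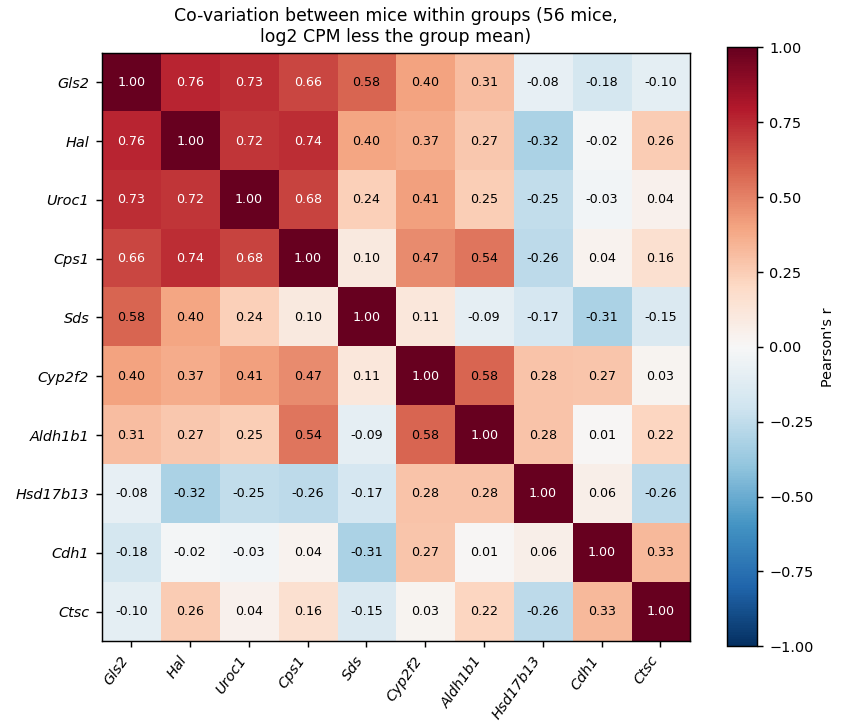
Pearson's r (colour and printed value) between the 10 genes over 56 mice, on log2 CPM less the group mean, with rows and columns in the same order. Gls2, Hal, Uroc1 and Cps1 form a block with r between 0.66 and 0.76.

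The genes most like each of the 10 over these 56 mice, among all tested, lay in the same metabolism for several. Gls2 was most like Ass1 (r = 0.85), Got1 (0.81) and Gm5424 (0.81), and Cps1 most like Gm5424 (0.90), Sephs2 (0.86) and Scd1 (0.86). Gm5424 is a pseudogene of Ass1, argininosuccinate synthase, so reads of the pair may be split between them. Hal was most like Amdhd1 (0.86), Dpyd (0.78) and Mthfd1 (0.77), Sds most like Slc38a3 (0.74), Asl (0.72) and Aspg (0.72), and Uroc1 most like Aldh8a1 (0.76), Pecr (0.76) and Gm5424 (0.75). The rest had weaker partners. Cyp2f2 was most like Cat (0.68), Ugp2 (0.65) and Lman1 (0.64), and Hsd17b13 like Ephx1 (0.70), Acot2 (0.68) and Abcc4 (0.68). Zfp202 (0.63) and Snx4 (0.63) were among the genes most like Aldh1b1. Cdh1 was most like Kifc3 (0.57), Lamc1 (0.56) and Pibf1 (0.55), and Ctsc like Pik3ap1 (0.66), Cul1 (0.62) and St6gal1 (0.62).

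The other periportal genes tracked part of the 10 between mice. The median correlation with those 20 genes was 0.52 for Hal, 0.45 for Uroc1, 0.43 for Cps1 and 0.37 for Gls2. With the 20 pericentral genes it was 0.20, 0.17, 0.13 and 0.22, and with the amino acid breakdown list 0.53, 0.45, 0.50 and 0.56. The periportal list itself holds genes of the urea cycle and of amino acid breakdown, and the part of shared metabolism was not tested. For Sds, Cyp2f2 and Aldh1b1 the median was 0.29, 0.21 and 0.22 with the periportal and 0.21, 0.02 and -0.03 with the pericentral genes. For Cdh1, Hsd17b13 and Ctsc the median with the periportal genes was -0.15, -0.10 and -0.06, so the label of a shared zone was not visible in how these 3 genes varied between mice.

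The spread between mice given ponatinib 3 mg/kg was below that of control mice for 6 of the 10 genes and above it for 4. The coefficient of variation of Gls2, Hal, Uroc1 and Sds was 8.93%, 8.69%, 8.68% and 12.5% with ponatinib 3 mg/kg, and 26.1%, 36.2%, 14.7% and 40.4% in control mice. Cps1 had 18.2% against 24.7% and Hsd17b13 12.0% against 14.4%. It went the other way for Aldh1b1 (16.7% against 9.93%), Cyp2f2 (20.5% against 15.2%), Cdh1 (37.8% against 31.5%) and Ctsc (19.1% against 18.4%). Over the 1397 genes above 100 CPM the median coefficient of variation was 13.4% with ponatinib 3 mg/kg and 15.8% in control mice. The summed level of the clock output genes ranged from 779 to 1281 CPM with ponatinib 3 mg/kg and from 299 to 1311 CPM in control mice. These spreads are a description and were not tested.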

How the data were processed

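Liver poly(A) RNA was sequenced (NextSeq 500) in 56 mice. The authors deposited raw counts per gene and mouse: reads aligned with TopHat 2.0.14 and Bowtie 2.1.0 to GRCm38 and counted by HTSeq-count 0.6.1p1, as the submitters' processing notes and labels name them. The strand setting of the counting is not given in the sources used here. Reads aligned to several places were counted on no gene. The 5 summary rows of each file stayed out of library sizes. Groups were taken from the labels, and 0 columns were left unused.

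Symbols were matched through GENCODE vM21. Of the 189 listed symbols, 188 were in the files. edgeR 4.0.16 (R 4.3.3) was run with TMM, its filter on low counts by group, and quasi-likelihood tests on all 56 mice, with Benjamini-Hochberg adjustment over 14314 genes and calls at an adjusted p below 0.05. The test was checked on simulated counts. Correlations used log2 CPM with a prior count of 2. The 10 genes, the gene lists and the tests were chosen with earlier results of these data known. Named beside the 10 were, for each list, the 3 genes with the lowest p and, for each of the 10, the 3 genes most like it, of which 1 is not reported here. Promoters were taken from the RefSeq table where a gene was called in at least 2 comparisons with control; Cps1 has no entry there. Alternatives were RLE normalization, no filter, DESeq2 1.42.0, limma 3.58.1 voom with sample weights, an unadjusted p below 0.01, the share of reads outside genes as a covariate, the 2 groups alone, 48 mice without L-NAME and, chosen after seeing the data, a fit without 3 mice. The total count, 7570238 per mouse at the median, limits the precision of low genes such as Cdh1, counted 40 to 382 times in mice other than the deepest L-NAME library. Mice were separate animals, and no sequencing batch is labelled.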

Additional observations from a re-analysis of the deposited data

Results flagged for a closer look

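Of the 70 sets of 8 mice (10 genes in 7 groups), 2 held a mouse far from the others by Dixon's criterion, where chance alone gives about 5% of sets. In the ponatinib 10 mg/kg group 1 mouse had a Cps1 level of 4160 CPM, inside the control range, and the next highest of the group had 2503 CPM, a gap of 0.557 of the group's whole range. In the ponatinib 3 mg/kg group 1 mouse had a Ctsc level of 268.9 CPM and the next highest 200.3 CPM, a gap of 0.572 of the range.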

How the results depend on the processing

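No call changed direction under any alternative. Over the 12 comparisons of the 10 genes, 119 of 120 results stayed on their side of the threshold with RLE normalization and with no filter on low counts, 113 with DESeq2, 104 with limma voom, 115 in fits of 2 groups, 109 with the covariate, 118 without the 3 mice with the largest share of reads outside genes, and all 110 in the 48 mice without L-NAME. The number of genes called against control became 1 with the covariate for imatinib (from 2), nilotinib 30 mg/kg (from 4), ponatinib 10 mg/kg (from 4) and L-NAME (from 3), and 0 for nilotinib 10 mg/kg (from 1). The calls left were Cps1, Uroc1, Cyp2f2 and Cyp2f2. For nilotinib 10 mg/kg it was 5 at an unadjusted p below 0.01, 4 with DESeq2, 5 with limma voom and 3 in a fit of 2 groups. With limma voom it was 1 for ponatinib 3 mg/kg (from 0) and 6 for L-NAME. Between the ponatinib doses it was 3 at the unadjusted threshold, with DESeq2 and with limma voom, and 0 with the covariate (from 1). Between ponatinib and nilotinib at 10 mg/kg it was 1 at the unadjusted threshold, with DESeq2 and with limma voom (from 0). Between ponatinib 10 and nilotinib 30 mg/kg it was 3 at the unadjusted threshold and 2 with limma voom (from 1). Between imatinib and ponatinib 10 mg/kg it was 3 at the unadjusted threshold and 0 in a fit of 2 groups (from 1), and between imatinib and nilotinib 30 mg/kg 1 with limma voom (from 0). The cause was not tested. No paired analysis was possible because the library numbers in the labels are each used once.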
